A study of Mus musculus with 12 samples.

Results

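The genes described here are 36 genes of sterol and fatty acid synthesis, namely the enzymes of both routes, the SREBP transcription factors that control them with the proteins that hold or release them, and a few further SREBP targets. They were chosen by name as members of these pathways, by a rule that uses no measured value but was set with earlier results of these data known, and all 36 were found among the 17365 genes of the count table. They fall into a sterol branch of 19 genes (8 for the mevalonate steps and 11 from squalene to cholesterol), a fatty acid branch of 8, 5 SREBP regulators and 4 other targets. RNA-seq was measured in 12 libraries of adult mouse neural stem cells (NSCs), cultured from the subventricular zone of mice aged 6 to 8 weeks and used below passage 10. Proliferating cells received EGF and FGF2 (EGF/FGF), and quiescence was induced by 3 days of BMP-4 alone (BMP, dormant d-qNSCs) or of BMP-4 with FGF2 (BMP/FGF, primed p-qNSCs), each factor at 10 ng/ml and all on the same serum-free medium with N2, B27 and laminin. Each condition held 2 replicates of the ANS4 line (strain MF1) and 2 of the BL6 line (strain C57BL/6, wild-type), and since each strain is represented by 1 line, strain, line and animal of origin cannot be told apart.

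Cholesterol is built from acetyl-CoA through mevalonate, isoprenoid units and squalene, and fatty acids are built from the same acetyl-CoA by carboxylation, chain assembly, elongation and desaturation. SREBP proteins sit in the endoplasmic reticulum membrane bound to the escort protein SCAP, and when sterols are scarce SCAP carries them to the Golgi, where proteases free the part that enters the nucleus. INSIG proteins retain the SCAP complex when sterols are plentiful. SREBF2 is known mainly for sterol genes and SREBF1 mainly for fatty acid genes, and neural cells make their own cholesterol because plasma lipoproteins do not cross into the brain. In the adult niche, lipid synthesis has been tied to the proliferation of neural stem cells, and the comparisons below ask how its genes stand in the proliferating and both quiescent states.

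Library totals lay between 18069052 and 19451818 counts, and all 36 genes passed the filter on low counts, along with 13312 genes in all. Levels are given as CPM, the counts scaled to a common library size with TMM factors, in the order ANS4 replicate 1, ANS4 replicate 2, BL6 replicate 1 and BL6 replicate 2. Fold changes are from edgeR's quasi-likelihood fit of all 12 libraries with condition and line as terms, with a gene called when its Benjamini-Hochberg FDR over all tested genes was under 0.05. The NSC markers Nes, Sox2, Sox9, Vim, Fabp7 and Pax6 were present in every library, with a summed level of 6126 to 7914 CPM. Of the markers of other cells, Sox10, Mog and Mag stayed at or below 0.990 CPM, Rbfox3 and Stmn2 at or below 0.625 CPM and Tmem119 and Csf1r at or below 0.223 CPM, while Dcx and Tubb3 did not. In bulk RNA a change in the share of cells that express a gene cannot be told apart from a change of RNA per cell.

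Promoter windows of the genes, taken from RefSeq on GRCm38.p6 and reaching from 250 bases before to 50 after each start, were available for 29 of the 36 genes as 37 windows; Sqle, Fdft1, Scd1, Scd2, Fads1, Stard4 and Fdps had no entry. The bases before the start are printed for 4 genes that the results below turn on, namely Hmgcs1 and Idi1 with the largest rises of the sterol branch in BMP/FGF against BMP, Insig1 as the only regulator that rose, and Fasn, which went opposite ways in the 2 lines. Each sequence runs 5′ to 3′ on the strand of its gene, and capitals mark TCACNCCAC (a sterol regulatory element core), CCAAT (the NF-Y box) or GGGCGG (the Sp1 box) on either strand.
Hmgcs1: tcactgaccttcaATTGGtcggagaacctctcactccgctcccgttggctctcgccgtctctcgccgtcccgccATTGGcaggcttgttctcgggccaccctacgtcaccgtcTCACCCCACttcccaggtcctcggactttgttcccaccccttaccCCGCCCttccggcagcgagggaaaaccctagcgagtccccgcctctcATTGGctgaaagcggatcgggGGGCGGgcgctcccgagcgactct
Idi1: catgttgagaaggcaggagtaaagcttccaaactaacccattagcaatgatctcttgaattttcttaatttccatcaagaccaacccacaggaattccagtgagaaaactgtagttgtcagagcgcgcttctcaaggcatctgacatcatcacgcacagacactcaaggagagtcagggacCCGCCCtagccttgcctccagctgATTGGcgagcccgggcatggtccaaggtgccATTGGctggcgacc
Insig1: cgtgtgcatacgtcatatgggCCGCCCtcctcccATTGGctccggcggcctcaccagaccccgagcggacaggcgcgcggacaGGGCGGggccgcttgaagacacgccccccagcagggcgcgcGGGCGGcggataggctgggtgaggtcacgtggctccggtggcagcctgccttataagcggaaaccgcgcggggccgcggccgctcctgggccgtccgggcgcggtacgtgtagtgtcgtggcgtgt
Fasn: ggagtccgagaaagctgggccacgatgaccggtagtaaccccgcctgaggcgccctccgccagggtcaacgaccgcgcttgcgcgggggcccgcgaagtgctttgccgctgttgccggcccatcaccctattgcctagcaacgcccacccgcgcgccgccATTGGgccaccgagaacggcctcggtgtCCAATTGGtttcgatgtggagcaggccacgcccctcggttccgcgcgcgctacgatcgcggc

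These windows lie at chr13:119690101-119690350, plus strand, for Hmgcs1, at chr13:8885356-8885605, plus strand, for Idi1, at chr5:28071162-28071411, plus strand, for Insig1, and at chr11:120824548-120824797, minus strand, for Fasn. The sterol regulatory element core occurred in the Hmgcs1 window, from base 137 to base 129 before the start, and in 1 of the 37 windows of these genes in all, against 1.24% of all 32851 promoter windows. CCAAT was found in 24 of the 37 windows (64.9%) against 37.4% of all windows, and GGGCGG in 26 (70.3%) against 35.7%. The E-box-like site TCACNTGA occurred in 1 window, of Insig2, against 4.18% of all. Searched on both strands and allowed to overlap, as CCAAT does with itself in the Fasn window, these matches describe letters in a window and not binding. By branch, CCAAT was in 15 of 19 sterol windows and 2 of 5 fatty acid windows, and GGGCGG in 15 of 19 and 1 of 5.

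FGF2 added to BMP-4 went with higher transcripts along nearly the whole sterol route. In BMP/FGF against BMP, 28 of the 36 genes were higher and 1 lower, where 20.1% of all tested genes were higher and 21.3% lower. Of the sterol branch 18 of 19 genes rose, with a median log2 fold change of 0.98 and a range from 0.06 to 1.63, and of the fatty acid branch 6 of 8 rose, with a median of 0.55. The median over all tested genes was 0.00. In 27 of the 36 genes all 4 BMP/FGF libraries lay above all 4 BMP libraries, which held for 17.6% of all tested genes. Genes of the sterol branch together took 0.204% to 0.314% of the counts in BMP libraries and 0.580% to 0.640% in BMP/FGF libraries.

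**Figure D1:**
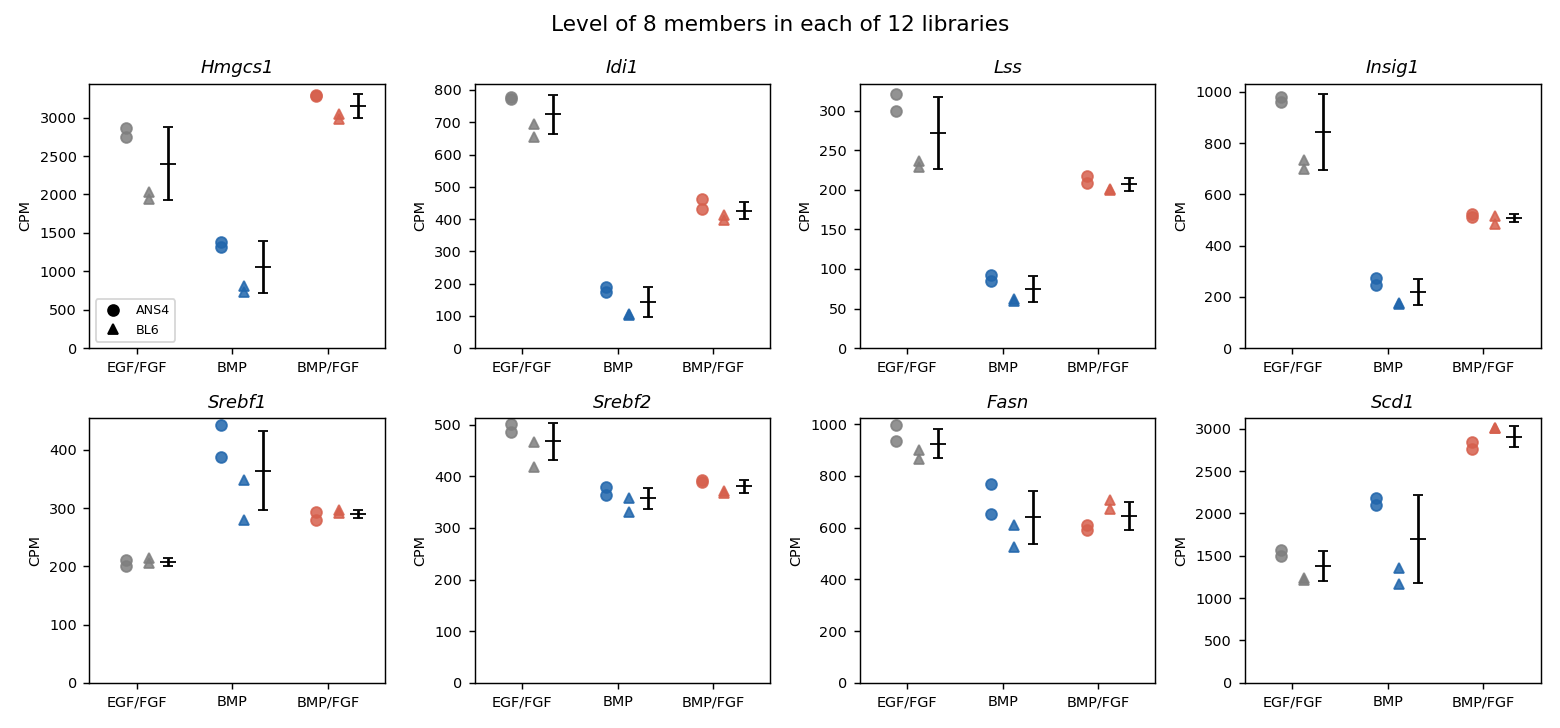
Level in CPM (y axis, from 0) of 8 genes in each library of EGF/FGF, BMP and BMP/FGF (x axis), with circles for ANS4, triangles for BL6 and a black bar for the mean ± SD of 4 libraries. Hmgcs1, Idi1, Lss and Insig1 fell in BMP and were higher in BMP/FGF, with no overlap between these 2 conditions, while Srebf2 and Fasn overlapped between BMP and BMP/FGF.

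Among the mevalonate steps, Hmgcs1 and Idi1 had the highest estimates in BMP/FGF against BMP, which differed by less than their SE. Hmgcs1, which makes HMG-CoA from acetyl-CoA units, measured 2867, 2742, 1947 and 2033 CPM in EGF/FGF, 1380, 1321, 805 and 734 CPM in BMP and 3295, 3283, 3052 and 2983 CPM in BMP/FGF. It was 3.09-fold higher in BMP/FGF than in BMP (log2 fold change 1.63 ± 0.10 SE, FDR = 3.56e-09), and its BMP/FGF libraries stood above those of every other condition. Idi1, the isomerase that interconverts the isoprenoid building blocks, measured 777, 773, 654 and 696 CPM in EGF/FGF, 190, 175, 106 and 102 CPM in BMP and 432, 461, 414 and 398 CPM in BMP/FGF. It rose 3.06-fold (log2 fold change 1.61 ± 0.11 SE, FDR = 6.00e-09) without reaching any EGF/FGF library. Mvd, which decarboxylates mevalonate diphosphate, measured 103, 107, 70.1 and 73.0 CPM in EGF/FGF, 30.8, 37.1, 21.6 and 25.9 CPM in BMP and 70.9, 67.2, 65.2 and 65.6 CPM in BMP/FGF. It rose 2.37-fold (log2 fold change 1.24 ± 0.10 SE, FDR = 3.15e-08), and its BMP/FGF values overlapped with those of EGF/FGF in part. Of the other 5 genes of these steps, Pmvk (1.17), Fdps (1.02), Acat2 (0.68) and Mvk (0.61, all log2 fold changes) also rose, each with its BMP/FGF libraries above all BMP libraries. Ggps1, whose product geranylgeranyl diphosphate serves protein prenylation and not sterols, measured 44.9, 41.0, 43.8 and 44.1 CPM in EGF/FGF, 48.5, 49.6, 45.8 and 46.5 CPM in BMP and 48.1, 51.2, 50.9 and 48.2 CPM in BMP/FGF. It did not pass the test (log2 fold change 0.06 ± 0.06 SE, FDR = 0.445; 95% interval -0.07 to 0.19) and stayed within a narrow range in every library.

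All 11 genes from squalene to cholesterol rose, and for each of them the BMP/FGF libraries lay above all BMP libraries. Lss, which closes squalene epoxide into lanosterol, measured 300, 321, 229 and 237 CPM in EGF/FGF, 85.2, 92.2, 59.5 and 62.6 CPM in BMP and 209, 218, 200 and 201 CPM in BMP/FGF. It rose 2.81-fold (log2 fold change 1.49 ± 0.08 SE, FDR = 5.47e-10), to a level between BMP and EGF/FGF in all 4 libraries. Cyp51, the lanosterol demethylase, measured 679, 656, 516 and 517 CPM in EGF/FGF, 180, 168, 119 and 105 CPM in BMP and 376, 381, 382 and 382 CPM in BMP/FGF. Its rise was 2.72-fold (log2 fold change 1.45 ± 0.10 SE, FDR = 7.36e-09), and the 4 BMP/FGF values lay close together where the BMP values differed between the lines. Tm7sf2, a sterol reductase, measured 42.1, 43.8, 34.4 and 32.7 CPM in EGF/FGF, 22.7, 25.5, 11.0 and 13.4 CPM in BMP and 49.9, 51.6, 38.6 and 42.2 CPM in BMP/FGF. It rose 2.59-fold (log2 fold change 1.37 ± 0.11 SE, FDR = 6.89e-08), and both BL6 libraries lay below both ANS4 libraries in each of the 3 conditions. The other 8 genes rose by between 0.33 for the isomerase Ebp and 1.24 for the methyl oxidase Msmo1 on the log2 scale, with Sc5d at 0.98, Dhcr7, the last reductase before cholesterol, at 0.95, Hsd17b7 at 0.79, Fdft1, which makes squalene, at 0.77, Nsdhl at 0.74 and Sqle, the squalene epoxidase, at 0.69.

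The 5 regulators did not move as a group. Insig1, itself a sterol-responsive SREBP target, measured 981, 959, 697 and 733 CPM in EGF/FGF, 245, 275, 173 and 176 CPM in BMP and 510, 522, 483 and 515 CPM in BMP/FGF. It rose 2.39-fold (log2 fold change 1.26 ± 0.09 SE, FDR = 9.92e-09), and all 4 BMP/FGF libraries stood between those of BMP and of EGF/FGF. Insig2, the other retention protein, measured 30.9, 30.2, 26.2 and 30.5 CPM in EGF/FGF, 47.9, 46.9, 48.6 and 44.6 CPM in BMP and 44.4, 45.5, 47.8 and 48.0 CPM in BMP/FGF. It was not called (log2 fold change -0.02 ± 0.07 SE, FDR = 0.860; 95% interval -0.16 to 0.12), and BMP and BMP/FGF overlapped while both lay above EGF/FGF. Per kb of its longest coding transcript, Insig1 stood at 80.6 ± 18.9 CPM in BMP and 188 ± 6.33 in BMP/FGF (mean ± SD, n = 4), and Insig2 at 17.4 ± 0.647 and 17.2 ± 0.654.

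Srebf2, the factor of the sterol genes, measured 485, 501, 466 and 418 CPM in EGF/FGF, 363, 379, 331 and 357 CPM in BMP and 393, 389, 371 and 368 CPM in BMP/FGF. BMP/FGF and BMP libraries overlapped, and the difference was not called (log2 fold change 0.09 ± 0.06 SE, FDR = 0.216; 95% interval -0.03 to 0.21). Srebf1, the factor of the fatty acid genes, measured 200, 211, 205 and 214 CPM in EGF/FGF, 387, 442, 280 and 349 CPM in BMP and 280, 294, 291 and 296 CPM in BMP/FGF. It was lower in BMP/FGF than in BMP (log2 fold change -0.32 ± 0.09 SE, FDR = 0.00920), unlike any other of the 36 genes, and the conditions overlapped in that BL6 replicate 1 in BMP was as low as the lowest BMP/FGF library. Within BL6 alone its difference was -0.10 and was not called (FDR = 0.434). Scap, the escort protein, measured 127, 136, 125 and 131 CPM in EGF/FGF, 137, 159, 137 and 163 CPM in BMP and 146, 134, 145 and 141 CPM in BMP/FGF. It was not called (log2 fold change -0.07 ± 0.07 SE, FDR = 0.392), and BMP and BMP/FGF overlapped. Per kb, Srebf2 stood at 70.4 ± 3.93 CPM and Srebf1 at 84.8 ± 15.8 in BMP, a difference within the spread of Srebf1, and in EGF/FGF at 92.1 ± 7.08 and 48.3 ± 1.45, where no library of Srebf1 reached any of Srebf2.

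Of the 4 other targets, Acss2, which makes acetyl-CoA from acetate, measured 307, 301, 177 and 181 CPM in EGF/FGF, 155, 175, 98.2 and 106 CPM in BMP and 374, 381, 404 and 385 CPM in BMP/FGF. It rose 3.01-fold (log2 fold change 1.59 ± 0.13 SE, FDR = 4.60e-08), and BMP/FGF stood above both other conditions. Stard4, a cytosolic sterol carrier, measured 78.9, 75.5, 60.1 and 65.7 CPM in EGF/FGF, 30.0, 30.0, 21.5 and 18.7 CPM in BMP and 45.2, 46.5, 47.2 and 46.1 CPM in BMP/FGF. It rose 1.87-fold (log2 fold change 0.91 ± 0.10 SE, FDR = 1.24e-06), to a level between BMP and EGF/FGF. Tmem97, a sterol-regulated membrane protein, rose by 0.85 on the log2 scale, from 11.5 to 15.7 CPM in BMP to 23.3 to 25.6 CPM in BMP/FGF. Lpin1, a phosphatidate phosphatase of glycerolipid synthesis, measured 135, 138, 118 and 123 CPM in EGF/FGF, 123, 128, 121 and 133 CPM in BMP and 117, 117, 121 and 121 CPM in BMP/FGF. It was not called (log2 fold change -0.09 ± 0.06 SE, FDR = 0.267), with all 3 conditions overlapping.

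The fatty acid branch split by step. The desaturases and elongases rose: Scd1, a stearoyl-CoA desaturase, measured 1566, 1493, 1209 and 1240 CPM in EGF/FGF, 2187, 2095, 1163 and 1354 CPM in BMP and 2763, 2840, 3008 and 3008 CPM in BMP/FGF. It was 1.77-fold higher in BMP/FGF than in BMP (log2 fold change 0.82 ± 0.12 SE, FDR = 4.62e-05), with BMP/FGF above every other library. Elovl6, an elongase of saturated and monounsaturated chains, measured 259, 267, 265 and 273 CPM in EGF/FGF, 86.0, 84.7, 79.7 and 73.6 CPM in BMP and 147, 148, 134 and 132 CPM in BMP/FGF. It rose 1.73-fold (log2 fold change 0.79 ± 0.06 SE, FDR = 1.68e-08) and stayed below all EGF/FGF libraries. Elovl5, an elongase of polyunsaturated chains, measured 631, 637, 536 and 537 CPM in EGF/FGF, 592, 567, 418 and 400 CPM in BMP and 811, 812, 843 and 818 CPM in BMP/FGF. Its rise was 1.69-fold (log2 fold change 0.75 ± 0.08 SE, FDR = 1.83e-06), and BMP/FGF exceeded both other conditions in all libraries.

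Fads1, a desaturase of polyunsaturated fatty acids, measured 906, 870, 737 and 780 CPM in EGF/FGF, 1717, 1703, 1078 and 1155 CPM in BMP and 2305, 2318, 2246 and 2272 CPM in BMP/FGF. It rose 1.65-fold (log2 fold change 0.72 ± 0.09 SE, FDR = 8.11e-06), and its levels stepped up from EGF/FGF to BMP and from BMP to BMP/FGF without overlap. Fads2, the desaturase that acts before it, measured 397, 389, 338 and 329 CPM in EGF/FGF, 949, 1000, 608 and 763 CPM in BMP and 1100, 1084, 1045 and 1033 CPM in BMP/FGF. It rose 1.30-fold (log2 fold change 0.38 ± 0.08 SE, FDR = 0.00165), with the same order of conditions and no overlap. Scd2, the main stearoyl-CoA desaturase of the brain, measured 6397, 6811, 5554 and 5304 CPM in EGF/FGF, 12231, 12813, 8528 and 7970 CPM in BMP and 12032, 11830, 12454 and 12911 CPM in BMP/FGF. Its call was close to the threshold (log2 fold change 0.28 ± 0.10 SE, FDR = 0.0428), and the BMP/FGF libraries overlapped with the ANS4 libraries in BMP. It was not called higher in 16 of 23 alternative fits, which included leaving out either ANS4 library or BL6 replicate 2 of EGF/FGF, or any BL6 library of BMP or BMP/FGF (log2 0.19 to 0.28, FDR 0.0503 to 0.173). In ANS4 alone its value was -0.07 (FDR = 0.307). Per kb, Scd2 stood at 2256 ± 87.9 CPM and Scd1 at 601 ± 25.5 in BMP/FGF, with no overlap.

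The enzymes that start and assemble the chain did not rise. Fasn, fatty acid synthase, measured 933, 998, 865 and 901 CPM in EGF/FGF, 654, 769, 524 and 609 CPM in BMP and 608, 592, 705 and 673 CPM in BMP/FGF. It was not called (log2 fold change 0.02 ± 0.09 SE, FDR = 0.879; 95% interval -0.17 to 0.22), and BMP/FGF lay within the range of BMP while both lay below EGF/FGF. Acaca, the acetyl-CoA carboxylase that makes malonyl-CoA, measured 299, 295, 294 and 293 CPM in EGF/FGF, 223, 229, 202 and 191 CPM in BMP and 193, 193, 215 and 211 CPM in BMP/FGF. It was not called either (log2 fold change -0.06 ± 0.06 SE, FDR = 0.516; 95% interval -0.19 to 0.08). In ANS4 alone both were lower in BMP/FGF, with a log2 fold change of -0.24 for Fasn (FDR = 0.0130) and -0.23 for Acaca (FDR = 0.00385), whereas in BL6 alone Fasn was higher by 0.28 (FDR = 0.00967) and Acaca was not called (0.12, FDR = 0.188).

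**Figure D2:**
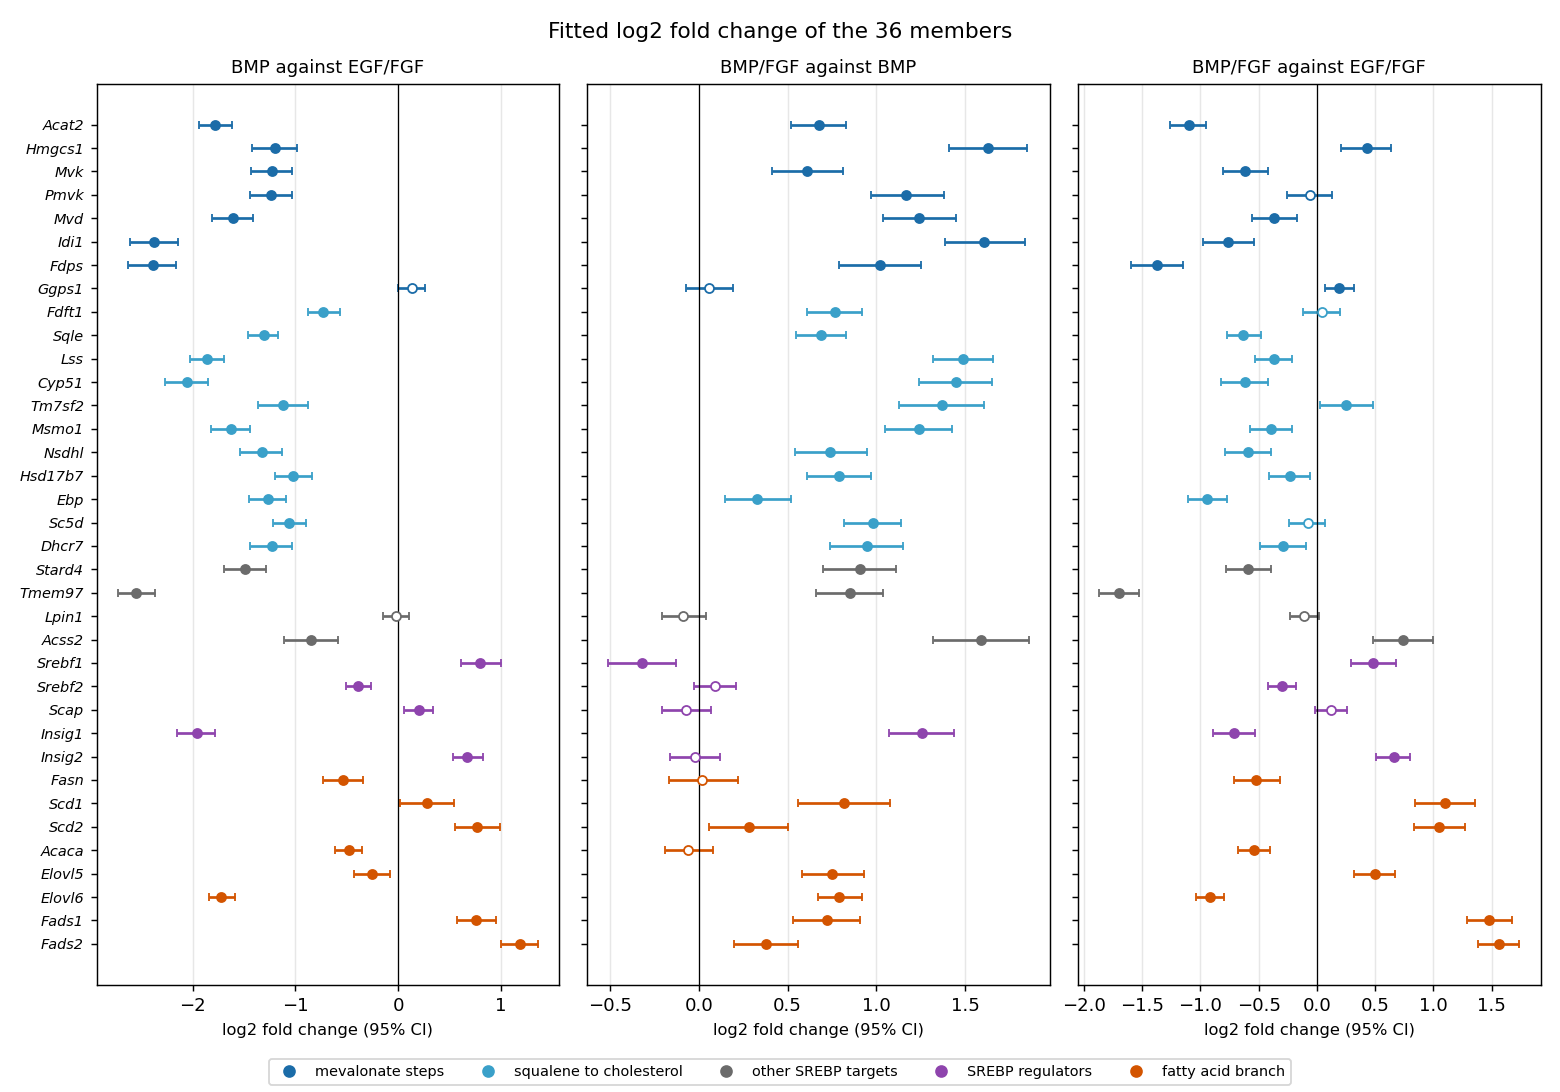
Log2 fold change with its 95% confidence interval (x axes, each with its own range) of the 36 genes (y axis, coloured by role) in the 3 comparisons of condition, with filled points for FDR under 0.05. The sterol genes other than Ggps1 lie left of 0 in BMP against EGF/FGF and right of 0 in BMP/FGF against BMP, while the fatty acid genes lie on both sides in BMP against EGF/FGF.

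Under BMP-4 alone the sterol branch fell and the fatty acid branch split. In BMP against EGF/FGF, 18 of 19 sterol genes fell, with a median log2 fold change of -1.27, and Ggps1 was not called (0.13, FDR = 0.0540). It was called higher in 4 of 23 alternative fits, which left out BL6 replicate 1 or 2 in BMP (0.15 and 0.14, FDR = 0.0421 and 0.0477), used library size only (0.15, FDR = 0.0292) or took ANS4 alone (0.19, FDR = 0.0271). Over all 36 genes 27 fell and 7 rose, against 38.8% and 40.8% of all tested genes. Tmem97 fell by 2.55 on the log2 scale, from 77.3 to 80.4 CPM in EGF/FGF, the largest fall of the 36. Fdps, which makes farnesyl diphosphate, fell by 2.39, Idi1 fell by 2.38, Cyp51 fell by 2.06 and Insig1 fell by 1.96. The least steep fall of the sterol branch was that of Fdft1, which fell by 0.73. BMP retained between 19.1% (Fdps) and 60.6% (Fdft1) of the mean EGF/FGF level in the 18 sterol genes that fell.

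The fatty acid branch divided into 4 genes that fell and 4 that rose, with a median of 0.01. This division is near that of all tested genes, of which 38.8% fell and 40.8% rose, with a median of 0.02. Elovl6 (-1.72), Fasn (-0.54), Acaca (-0.48) and Elovl5 (-0.26) fell, whereas the desaturases Fads2 (1.18), Scd2 (0.77), Fads1 (0.76) and Scd1 (0.28, all log2 fold changes) rose. The Scd1 rise was weakly placed (FDR = 0.0436): within BL6 it was 0.02 (FDR = 0.785), and leaving out any of the 4 EGF/FGF libraries or either ANS4 library in BMP took its FDR to between 0.0674 and 0.188. Among the regulators, Srebf1 (0.80), Insig2 (0.67) and Scap (0.20) rose, and Srebf2 (-0.39) and Insig1 fell. The Scap call was lost without ANS4 replicate 2 in BMP (0.16, FDR = 0.0502).

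In BMP/FGF against EGF/FGF, which shares libraries with both comparisons above, 20 of the 36 genes were lower and 11 higher, against 38.0% and 40.9% of all tested genes. The sterol branch had 13 lower, 3 higher and 3 not called, with a median of -0.37. Fdps (-1.37), Acat2 (-1.10), the thiolase at the head of the route, and Ebp (-0.94) were lowest, and Pmvk (-0.06), Fdft1 (0.04) and Sc5d (-0.08) were not called. Of the other targets, Acss2 was higher (0.74), and Lpin1 was not called (-0.11, FDR = 0.105). Lpin1 was called lower in 4 alternative fits, which left out BL6 replicate 1 of EGF/FGF (-0.15, FDR = 0.0434), used library size only (-0.13, FDR = 0.0452), used the 8 libraries compared (-0.12, FDR = 0.0430) or took ANS4 alone (-0.22, FDR = 0.00197). Hmgcs1 (0.43), Ggps1 (0.19) and Tm7sf2 (0.25) were higher, although Tm7sf2 was not called without either ANS4 library or BL6 replicate 2 of EGF/FGF, or without either BL6 library of BMP/FGF (0.18 to 0.27, FDR 0.0532 to 0.170). In all, Tm7sf2 lost its call in 13 of 23 alternative fits, also by DESeq2 (0.24, FDR = 0.0554) and limma-trend (0.12, FDR = 0.278). Dhcr7 lost its call without ANS4 replicate 2 of BMP/FGF (-0.23, FDR = 0.0507), and Hsd17b7 without either ANS4 library of BMP/FGF (-0.18 and -0.19, FDR = 0.0699 and 0.0646). The fatty acid branch had 5 higher and 3 lower, with a median of 0.77: Fads2 (1.56), Fads1 (1.48), Scd1 (1.10), Scd2 (1.05) and Elovl5 (0.50) were higher, and Elovl6 (-0.92), Acaca (-0.54) and Fasn (-0.52) lower.

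Proliferation changed along with these genes. The summed level of Mki67, Top2a, Pcna, Mcm2 and Ccnb1, all of which were called lower in both quiescent conditions than in EGF/FGF, was 2157 to 2605 CPM in EGF/FGF, 367 to 545 CPM in BMP and 266 to 282 CPM in BMP/FGF. All 5 were also lower in BMP/FGF than in BMP, the reverse of the sterol genes. The summed level of the astrocyte markers Gfap, Aqp4, S100b, Aldh1l1 and Slc1a3 was 2076 to 2558 CPM in EGF/FGF, 5545 to 6576 CPM in BMP and 8706 to 8892 CPM in BMP/FGF. Gfap, Aqp4 and Slc1a3 were called higher at both steps. Aldh1l1 was not called in BMP against EGF/FGF (log2 fold change 0.05, FDR = 0.652), nor S100b in BMP/FGF against BMP (0.21, FDR = 0.395). The 3 tested neuroblast and neuron markers, Dcx, Tubb3 and Map2, gave the bulk of a sum of 553 to 587 CPM in EGF/FGF, 1119 to 1730 CPM in BMP and 864 to 930 CPM in BMP/FGF. Most of the EGF/FGF sum was Map2, with a mean of 554 CPM against 1.29 CPM for Dcx and 11.8 CPM for Tubb3. Their log2 fold changes in BMP against EGF/FGF were 7.69 for Dcx, 3.79 for Tubb3 and 0.79 for Map2. In BMP/FGF against BMP they were -2.38, -1.82 and -0.24. Of the oligodendrocyte lineage markers, Pdgfra was 27.8 to 33.3 CPM in EGF/FGF, 52.3 to 98.7 CPM in BMP and 50.6 to 52.5 CPM in BMP/FGF, and Cspg4 averaged 38.7 ± 6.18 CPM, 26.0 ± 6.51 CPM and 28.5 ± 3.70 CPM (mean ± SD, n = 4). Of the NSC markers, only Fabp7, a fatty acid binding protein of radial glia, was called in the directions of most sterol genes in both comparisons. It had log2 fold changes of -2.39 in BMP against EGF/FGF and 1.58 in BMP/FGF against BMP. In BMP against EGF/FGF, Sox9 (2.03), Vim (0.80), Sox2 (0.54) and Pax6 (0.20) were called higher and Nes (-2.17) lower. None of these other NSC markers was called in BMP/FGF against BMP. The part of any of these in the sterol and fatty acid changes was not tested.

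**Figure D3:**
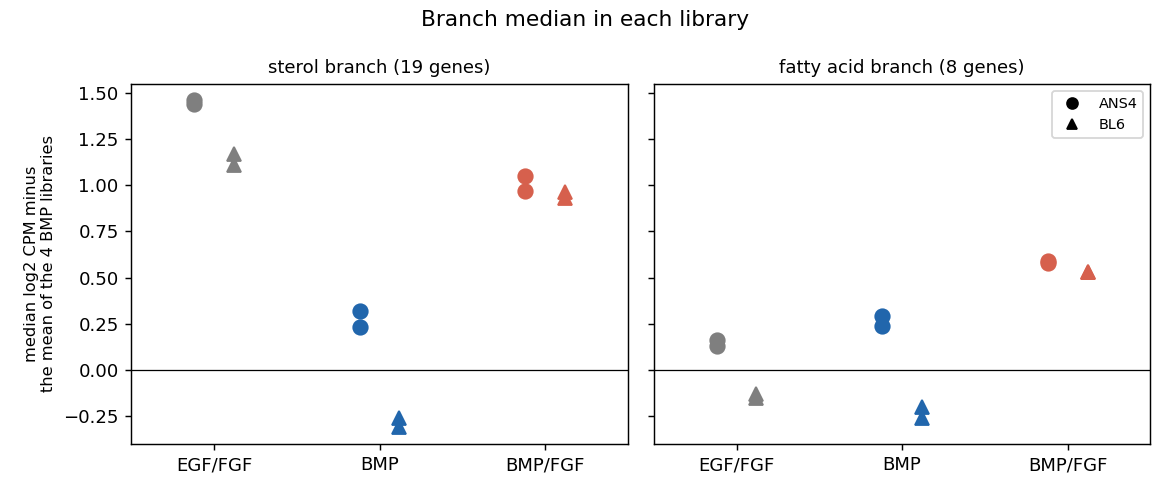
Median over the genes of a branch of log2 CPM minus its mean in the 4 BMP libraries (y axis) in each library of the 3 conditions (x axis), with circles for ANS4 and triangles for BL6. The sterol branch is highest in EGF/FGF (1.11 to 1.46) and returns to between 0.93 and 1.05 in BMP/FGF, whereas the fatty acid branch is highest in BMP/FGF (0.53 to 0.59).

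The 2 lines differed in these genes. The log2 change from BMP to BMP/FGF was larger in BL6 than in ANS4 for all 36 genes by its sign and for 26 at an FDR under 0.05, where 6.67% of all tested genes had a larger and 6.86% a smaller change in BL6. The sign depended on the fit for some genes. Over 20 alternative fits the lowest difference was below 0 for Scap (-0.11), Ebp (-0.09), Elovl6 (-0.07), Srebf2 (-0.05) and Lpin1 (-0.04). For no gene was the change called smaller in BL6 by edgeR, also at an unadjusted p under 0.05, nor by DESeq2 or limma-trend, which called 25 and 26 genes as larger. The 26 genes were 14 of the 19 sterol genes, 7 of the 8 fatty acid genes, 3 of the 4 other targets and the regulators Insig1 and Srebf1. A larger change here is a more positive one, not always a stronger one. Srebf1 fell by 0.53 in ANS4 alone (log2 fold change -0.53, FDR = 2.24e-05) and was not called in BL6 alone (-0.10, FDR = 0.434). The sterol median was 0.67 in ANS4 alone and 1.25 in BL6 alone, with 18 of 19 genes called higher in each line, and the fatty acid median was 0.28 and 0.71.

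The 5 genes with the lowest FDR were Scd1 (difference of log2 changes 0.87 ± 0.09 SE, FDR = 4.84e-05), Scd2 (0.69 ± 0.08, FDR = 6.41e-05), Hmgcs1 (0.69 ± 0.08, FDR = 0.000115), Acss2 (0.75 ± 0.09, FDR = 0.000153) and Idi1 (0.68 ± 0.09, FDR = 0.000201). In the library values above, each of them was lower in both BL6 libraries than in both ANS4 libraries in BMP, while in BMP/FGF none of them was called different between the lines. For the fatty acid synthase Fasn the difference was 0.53 (FDR = 0.00483), with opposite directions in the 2 lines. Elovl6 (0.01, 95% interval -0.18 to 0.19), Scap (0.01, -0.24 to 0.26), Ebp (0.02, -0.31 to 0.35) and Srebf2 (0.02, -0.17 to 0.22) had the estimates nearest to 0.

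Some of the 26 calls were lost when 1 library was left out, and some also under other settings. With library size only, Mvd, Sqle, Srebf1 and Tmem97 were not called (0.24 to 0.36, FDR 0.0599 to 0.0921). With only the 8 libraries compared, Mvd (FDR = 0.0693), Srebf1 (FDR = 0.0523) and Tmem97 (FDR = 0.0735) were not called. Mvd also lost its call with no filter (FDR = 0.0564). Tmem97 also lost its call by DESeq2 (FDR = 0.0658) and with the replicate block (FDR = 0.0531). Mvd lost its call without ANS4 replicate 2 or BL6 replicate 1 of BMP or without any BMP/FGF library (0.30 to 0.49, FDR 0.0608 to 0.190), and Sqle without either ANS4 library or BL6 replicate 2 of BMP or any BMP/FGF library (0.25 to 0.36, FDR 0.0607 to 0.126). Srebf1 lost it without ANS4 replicate 2 of BMP or any BMP/FGF library (0.33 to 0.46, FDR 0.0580 to 0.119), and Tmem97 without either ANS4 library of BMP, ANS4 replicate 1 of BMP/FGF or either BL6 library of BMP/FGF (0.37 to 0.47, FDR 0.0612 to 0.126). Fads2 lost it without ANS4 replicate 2 of BMP (0.40, FDR = 0.0518) or of BMP/FGF (0.42, FDR = 0.0579), and Sc5d without the latter (0.37, FDR = 0.0602). Mvk, not called in the fit of all libraries (0.35, FDR = 0.176), was called without BL6 replicate 2 of BMP (0.62, FDR = 0.00416).

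The lines were also compared within each condition, in tests added after the data were seen that share libraries with the difference above. In BMP, 29 of the 36 genes were lower in BL6 than in ANS4, against 10.8% of all tested genes, with a median log2 difference of -0.50 and the largest for Tm7sf2 (-0.98 ± 0.11 SE). In EGF/FGF, 21 were lower in BL6, against 3.84% of all tested genes, with a median of -0.26 and the largest for Acss2 (-0.77 ± 0.07 SE). No gene was called higher in BL6 in either condition by edgeR, DESeq2 or limma-trend, also at an unadjusted p under 0.05 (0 of 36), where edgeR called 12.3% of all tested genes higher in BMP and 2.91% in EGF/FGF. In BMP/FGF no gene was called in either direction by any of the 3 tools, where 0.563% of all tested genes were higher and 0.173% lower by edgeR; at an unadjusted p under 0.05 edgeR had 2 higher (Fasn and Acaca) and 4 lower (Tm7sf2, Idi1, Hmgcs1 and Elovl6), against 12.7% of all tested genes in either direction. The median in BMP/FGF was -0.03, with a range from -0.33 for Tm7sf2 to 0.20 for Fasn. Both BL6 libraries lay below both ANS4 libraries for 32 genes in BMP, 30 in EGF/FGF and 16 in BMP/FGF, against 27.5%, 27.3% and 24.3% of all tested genes. Both lay above for 11 genes in BMP/FGF and for 0 in BMP and EGF/FGF.

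**Figure D4:**
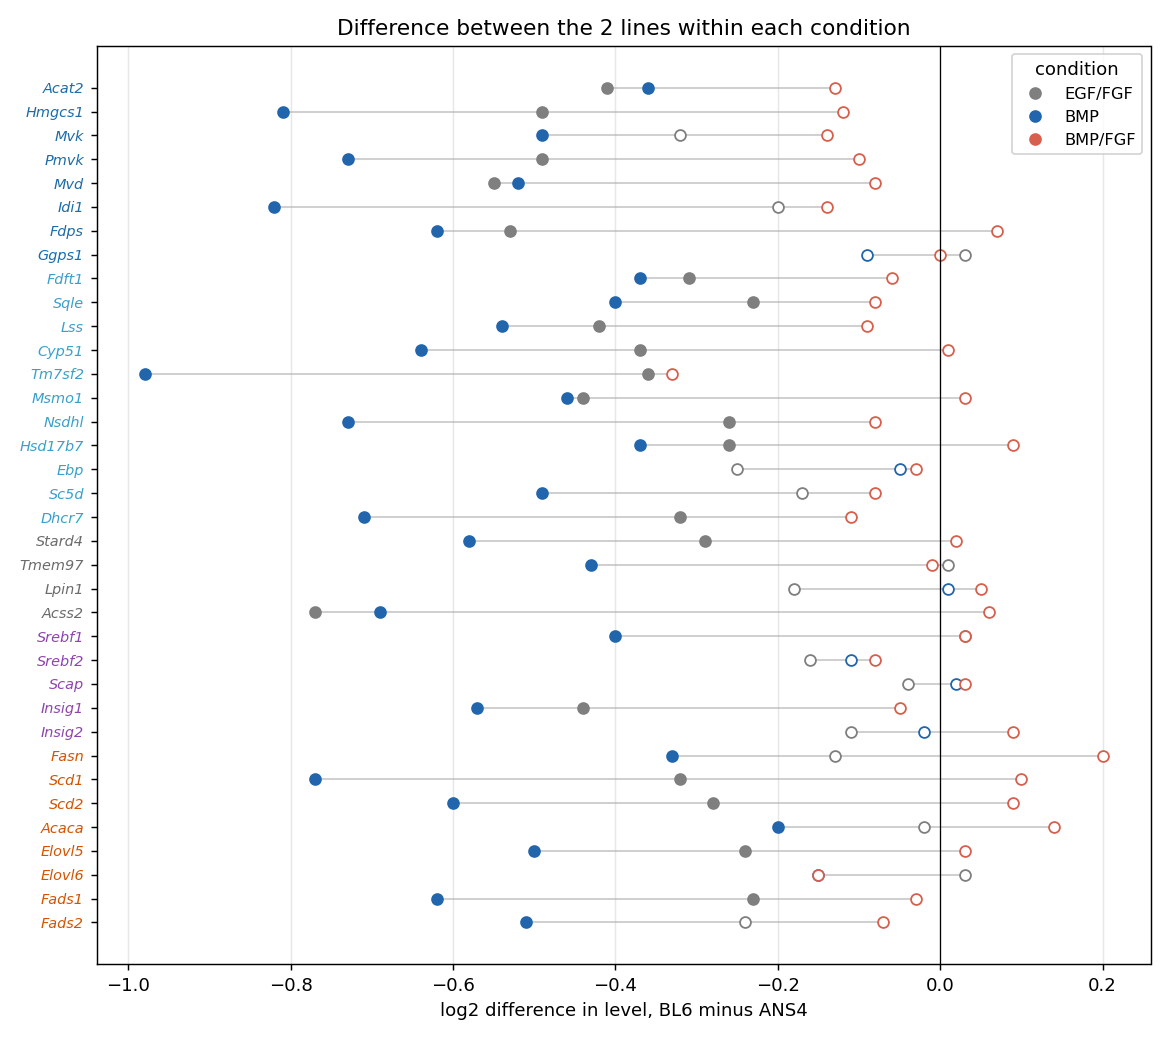
Log2 difference in level between BL6 and ANS4 (x axis, below 0 where BL6 is lower) for each of the 36 genes (y axis, coloured by role) in EGF/FGF, BMP and BMP/FGF, with filled points for FDR under 0.05. The BMP points reach -0.98, while all BMP/FGF points are open and lie between -0.33 and 0.20.

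Other transcripts differed between the lines in BMP as well. The 5 neuroblast and neuron markers Dcx, Tubb3, Rbfox3, Stmn2 and Map2 summed to 1205 and 1119 CPM in ANS4 and 1730 and 1558 CPM in BL6 in BMP, and to 864 to 930 CPM in BMP/FGF. Dcx alone was 173 and 170 CPM in ANS4 and 396 and 378 CPM in BL6 in BMP, and 47.6 to 54.8 CPM in BMP/FGF, while the mature neuron marker Rbfox3 was at or below 0.208 CPM in every library. All 3 of these markers that were tested were higher in BL6 in BMP. The proliferation markers, of which Mki67, Top2a and Ccnb1 of 5 were called higher in BL6 in BMP, summed to 385 and 367 CPM in ANS4 and 545 and 480 CPM in BL6 in BMP, and the astrocyte markers to 6576 and 6555 CPM and to 5563 and 5545 CPM, with Aqp4, Aldh1l1 and Slc1a3 lower in BL6 and Gfap higher. None of the tested markers of these lists was called different between the lines in BMP/FGF. Of the oligodendrocyte lineage markers, Pdgfra was 52.5 and 52.3 CPM in ANS4 and 98.7 and 88.9 CPM in BL6 in BMP, and Cspg4 was 20.3 and 20.9 CPM and 29.4 and 33.5 CPM, with Sox10 at or below 0.625 CPM. The 4 microglia markers in the table summed to at most 4.15 CPM in BMP; Aif1 and C1qa were not analysed here. Fabp7 was lower in BL6 in BMP (-0.85, FDR = 9.40e-05). The part of these in the line difference was not tested. The 2 BL6 libraries in BMP also differed more from each other than any other replicate pair, with a chi-square per gene of 11.8 against 2.10 to 4.59.

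Of 54 further genes of the same pathways, 52 were tested in BMP/FGF against BMP. Of these, 17 rose, 6 fell and 29 were not called, with a median log2 fold change of 0.06. Over all tested genes 20.1% were higher and 21.3% lower, and the counts by role that follow stand against the same shares. In sterol and isoprenoid synthesis 3 of 10 rose, namely Erg28, a scaffold of the demethylation steps (0.64), Coq2 of ubiquinone synthesis (0.31) and Nus1 (0.31), and Dhdds, the partner of Nus1 in dolichol synthesis, fell by 0.28. In fatty acid synthesis and activation 11 of 20 rose, with Acsl5, an acyl-CoA synthetase (1.01), and Me1, the malic enzyme that supplies NADPH (0.73), moving most, and 2 fell, Fads3 by 0.59 and Acsl1, another acyl-CoA synthetase, by 0.47. Among 12 genes of SREBP processing and sterol sensing only Erlin1 of the endoplasmic reticulum rose (0.30), while Nfyc, a subunit of the CCAAT-binding NF-Y complex, fell by 0.39 and Mbtps1, the protease that makes the first cut of SREBP in the Golgi, fell by 0.18. In sterol movement and esterification 2 of 10 rose, the lysosomal sterol binder Npc2 (0.40) and the lysosomal lipase Lipa (0.25), and the endosomal carrier Stard3 fell by 0.27. The line difference was called as larger in BL6 for 10 of these 52 genes and smaller for 1, against 6.67% and 6.86% of all tested genes.

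Counting could be shared with near-identical sequences for some of the genes. In the GENCODE vM21 transcripts, 6 of the 36 genes had more than 20% of their 31-base words in common with another gene, and their levels are less certain: Acat2 (43.7%, with Acat3), Acaca (33.5%, mainly Gm5182), Fdft1 (31.9%, mainly Ctsb), Fdps (27.9%, mainly Gm43738), Idi1 (27.1%, mainly Gm13502) and Tmem97 (25.6%, Gm5809). Scd1 and Scd2 shared 8.18% and 6.81%, and 9 genes shared none, among them Fasn, Pmvk, Mvd and Insig2. On GRCm38, Hmgcs1 lies at chr13:119690379-119708260, Insig1 at chr5:28071363-28078662, Srebf1 at chr11:60199089-60222581 and Fasn at chr11:120805846-120824547.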

How the data were processed

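RNA-seq libraries were made by the study with a low input protocol for BGISEQ-500RS. Per the labels and the study's methods, the authors trimmed the reads with Trim Galore 0.5.0, obtained transcript abundances from the mm10 transcriptome in kallisto 0.44.0, and used Tximport to collapse these to genes. The deposited counts are whole numbers per gene and were used as counts. A second deposited table holds log2 values of the regularized logarithm made by the authors with DESeq2 1.27.32, and served only as an alternative.

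The counts were filtered with filterByExpr (minimum count 10), scaled by TMM and fitted with glmQLFit in edgeR 4.0.16 under R 4.3.3, with condition and line as terms, and tested with glmQLFTest (two-sided, Benjamini-Hochberg over 13312 genes). The line difference used a line by condition interaction. Log2 CPM used a prior count of 2. Alternatives used DESeq2 1.42.0 and limma 3.58.1, and the edgeR, DESeq2 and limma fits were tested on simulated data. Members and gene lists were chosen with earlier results of these data known. Library values are given for all regulators and fatty acid genes, the 3 genes of each sterol role and the 2 other targets with the largest change in BMP/FGF against BMP, genes not called there, and the 5 lowest interaction FDRs; other pathway genes are named where they have the 2 largest rises or falls of their role. The study calls its replicates biological, but no source used here says what separates those of a line, so p-values measure only the spread between these libraries. Totals were 18069052 to 19451818 counts, and 1 count equals 0.0514 to 0.0553 CPM before TMM scaling. Promoter sequences are from RefSeq (GRCm38.p6) and gene positions from GENCODE vM21 (GRCm38, the mm10 build). 1 marker of the oligodendrocyte lineage list is not reported here.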

Additional observations from a re-analysis of the deposited data

Results flagged for a closer look

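The log2 change from BMP to BMP/FGF differed between the lines, by the interaction test in edgeR at an FDR under 0.05, for 26 of the 36 genes. It was more positive in BL6 for each, which for Srebf1 meant a smaller fall (-0.10 in BL6 alone, -0.53 in ANS4 alone). The values, as BL6 minus ANS4 on the log2 scale, were 0.87 for Scd1, 0.75 for Acss2, 0.69 for Scd2, Hmgcs1 and Fdps, 0.68 for Idi1, 0.65 for Nsdhl, Cyp51 and Tm7sf2, 0.63 for Pmvk, 0.60 for Stard4, 0.59 for Dhcr7 and 0.58 for Fads1. They were 0.53 for Elovl5 and Fasn, 0.52 for Insig1, 0.50 for Msmo1, 0.47 for Hsd17b7, 0.45 for Lss, 0.44 for Mvd and Fads2, 0.43 for Srebf1, 0.42 for Tmem97, 0.41 for Sc5d, 0.34 for Acaca and 0.32 for Sqle.

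Of 108 groups of 4 libraries (36 genes in 3 conditions), 2 held a library far from the other 3 by Dixon's criterion. For 4 values from 1 normal distribution, chance gives about 1 in 20. Each group here holds 2 libraries of each of 2 lines, which differed for many of these genes, so that rate need not apply. Cyp51 in BMP/FGF was 376 CPM in ANS4 replicate 1 against 381 to 382 CPM in the others, and Insig2 in EGF/FGF was 26.2 CPM in BL6 replicate 1 against 30.2 to 30.9 CPM.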

How the results depend on the processing

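Counts of called genes and branch medians kept within 1.5 times or 1 SD of their values under nearly all alternatives. The largest moves came from fitting 1 line alone, which leaves 6 libraries. In BMP/FGF against BMP, the 1 gene lower became 3 in ANS4 and 0 in BL6, and the other pathway genes lower went from 6 to 11 in ANS4. In BMP/FGF against EGF/FGF the sterol median went from -0.37 to -0.60 in ANS4 and to -0.20 in BL6, and the fatty acid median from 0.77 to 0.60 in ANS4 and 0.91 in BL6. In BMP/FGF against BMP the sterol median went from 0.98 to 0.67 in ANS4 and 1.25 in BL6, and the fatty acid median from 0.55 to 0.28 and 0.71. In BMP against EGF/FGF the fatty acid median of 0.01 was 0.18 in ANS4 and -0.19 in BL6. Adding Lpin1 and Acss2 to the fatty acid branch took its median in BMP/FGF against EGF/FGF to 0.62. In ANS4 alone the sign of Fasn (-0.24) and of Scd2 (-0.07) in BMP/FGF against BMP was the opposite of the value over both lines; the cause was not tested.

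Leaving out 1 library at a time gave 27 to 28 genes higher in BMP/FGF against BMP, 5 to 8 higher in BMP against EGF/FGF and 21 to 26 with a larger change in BL6. Replicate numbers did not pair the libraries by the criterion of a positive correlation in every pair: the correlation of replicate differences between BMP/FGF and BMP was -0.0711 for ANS4 and -0.0138 for BL6 across 13312 genes (-0.123 and -0.0817 for genes above a mean log2 CPM of 3). Between BMP and EGF/FGF it was 0.0529 for ANS4 and 0.0156 for BL6 (0.306 and -0.0654 above that level), and between BMP/FGF and EGF/FGF -0.0111 and -0.00554 (-0.179 and 0.00753). With the replicate block, 27 genes were higher in BMP/FGF against BMP and 25 had a larger change in BL6, with the calls of Scd2 in BMP/FGF against BMP (FDR = 0.0722), Scd1 in BMP against EGF/FGF (0.0663), Tm7sf2 in BMP/FGF against EGF/FGF (0.0555) and Tmem97 in the line difference (0.0531) lost and no other call of the 36 genes changed. With the ANS4 BMP/FGF numbers crossed, chosen after seeing the data, the counts were 27 and 27. Scaling moved the median of all genes by at most 0.05 in the 3 comparisons of condition. The line difference was not part of this check.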
